A study of Mus musculus with 26 samples.

Results

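The comparison concerns the aorta of hypertensive mice with and without the sphingosine kinase gene Sphk1 in smooth muscle cells. Its members were chosen by their labels: 5 aortic libraries of knockout mice and 4 aortic libraries of mice with intact Sphk1, all infused with angiotensin II, 9 of the 26 libraries of the series. All mice were males on the C57BL6J background and carried loxP-flanked (floxed) Sphk1 on both alleles, the controls included. Knockout mice (KO) also carried Cre recombinase driven by the promoter of Tagln, the gene of the smooth muscle protein SM22-alpha, and Cre-negative mice are named wild type (WT). Angiotensin II (AngII), a peptide that constricts vessels and raises blood pressure, was infused for 14 days at 490 ng/kg/min from implanted pumps, starting at 12 to 14 weeks of age. A further aortic group of 4 WT sham mice without AngII serves as the background level. The labels count as many mice as libraries in each group.

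Several features limit the KO mice as a model. Deletion takes place only in cells in which the Tagln promoter has been active, so endothelial, immune and other cells of the vessel keep the gene. The exons between the loxP sites are not given in the sources used here. No KO sham group and no group with Cre alone were analysed here, so the loss of Sphk1 cannot be told apart from the presence of Cre, and the deletion was compared only under infusion.

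Sphk1 encodes 1 of the 2 sphingosine kinases, which phosphorylate sphingosine to sphingosine-1-phosphate (S1P). S1P is exported from cells by dedicated transporters and acts on G protein-coupled receptors of the S1pr family, which in the vessel wall control endothelial barrier function, smooth muscle tone, migration and growth. Inside the cell S1P is either cleaved irreversibly by a lyase or returned to sphingosine by phosphatases, and sphingosine is in turn exchanged with ceramide.

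The 13 aortic libraries held 23.49 to 32.25 M reads assigned to genes, and 16863 genes were abundant enough to be tested. Levels are given as CPM, read counts scaled to the size of each library after normalisation between libraries. On the first principal component of the 1000 most variable genes, which held 57.8% of their variance, the sham libraries lay at 33.1 to 47.6 and all AngII libraries at or below 9.08. KO and WT AngII libraries were interspersed there, except that WT AngII replicate 4 lay apart from the other 8, at 9.08 against -31.1 to -7.05. It also had the lowest value on the second component, -34.3. Leaving out this library or WT AngII replicate 1 moved many of the values below, often in opposite directions, and the medians of gene lists that moved most are given without single libraries. Smooth muscle markers, which define the tissue, were abundant in every library: the 16 genes of the list summed to 20100 to 38040 CPM in WT AngII, 20760 to 35020 CPM in KO and 34320 to 42470 CPM in sham aortas.

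**Figure D1:**
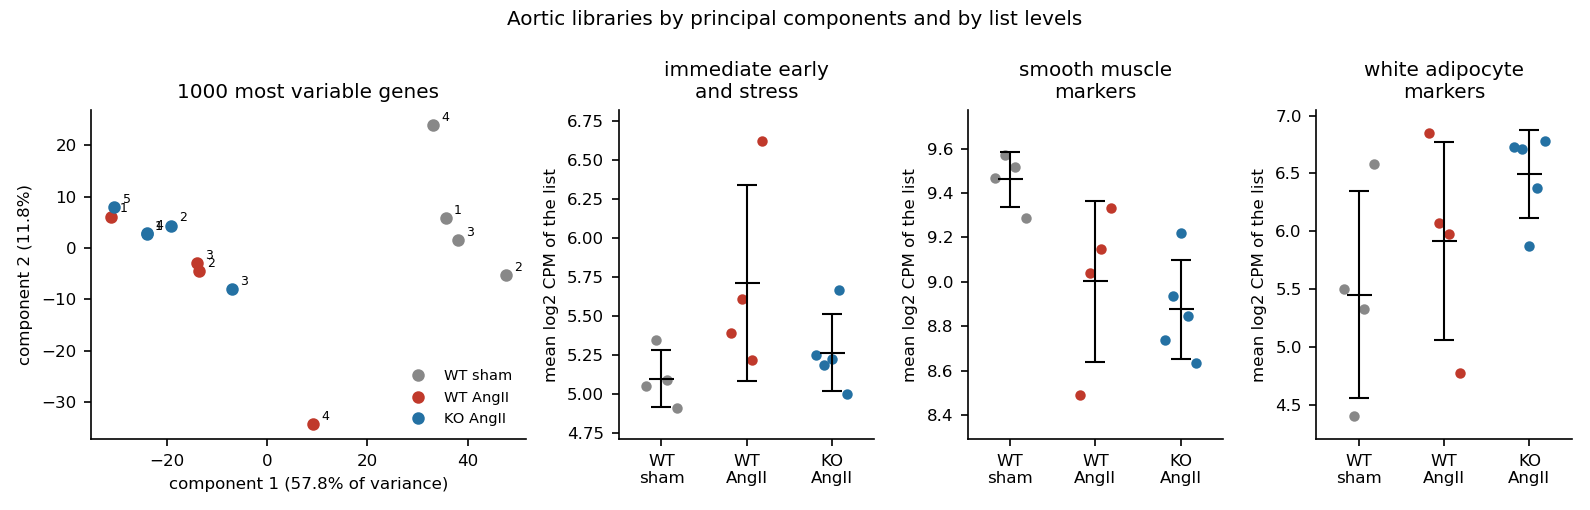
Left, the 13 aortic libraries on the first 2 principal components of log2 CPM of the 1000 most variable genes, numbered by replicate; KO 1 and KO 4 coincide. The other 3 panels give the mean log2 CPM of immediate early and stress genes, smooth muscle markers and white adipocyte markers in each library (points), with the group mean and SD (bars); the vertical axes do not start at 0. WT AngII 4 lies apart in the left panel, is the highest for immediate early genes and the lowest AngII library for white adipocyte markers.

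Sphk1 RNA was lower in every KO aorta than in every WT AngII aorta, and lower than in most sham aortas. In the 4 WT AngII libraries it stood at 24.2, 22.9, 16.1 and 11.6 CPM. The 5 KO libraries held 2.64, 1.85, 1.72, 3.29 and 3.03 CPM, from 49 to 101 reads each. Sham libraries held 4.31, 5.08, 6.03 and 3.04 CPM. The lowest WT AngII library thus lay above the highest KO library by a wide margin, whereas the sham and KO ranges overlapped slightly.

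The log2 fold change of Sphk1 between KO and WT AngII aortas was -2.90 ± 0.26 (SE; 95% interval -3.45 to -2.34; edgeR adjusted p = 0.0004598). This is 7.45-fold lower, with an interval of 5.07 to 10.9, so 13.4% (9.14 to 19.7%) of the WT level was left. An exact two-sided permutation test over all ways of regrouping the 9 libraries gave p = 0.007937, the smallest value that this design can reach. Infusion itself raised Sphk1 in WT aortas 4.05-fold (2.74 to 5.99; edgeR adjusted p = 0.0001364). Against sham, Sphk1 in KO aortas under AngII was still lower by a log2 fold change of -0.88 ± 0.27 (edgeR adjusted p = 0.02197). In RNA of whole vessels, fewer cells that express a gene and less RNA per cell cannot be told apart, and the source of the remaining reads was not tested.

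**Figure D2:**
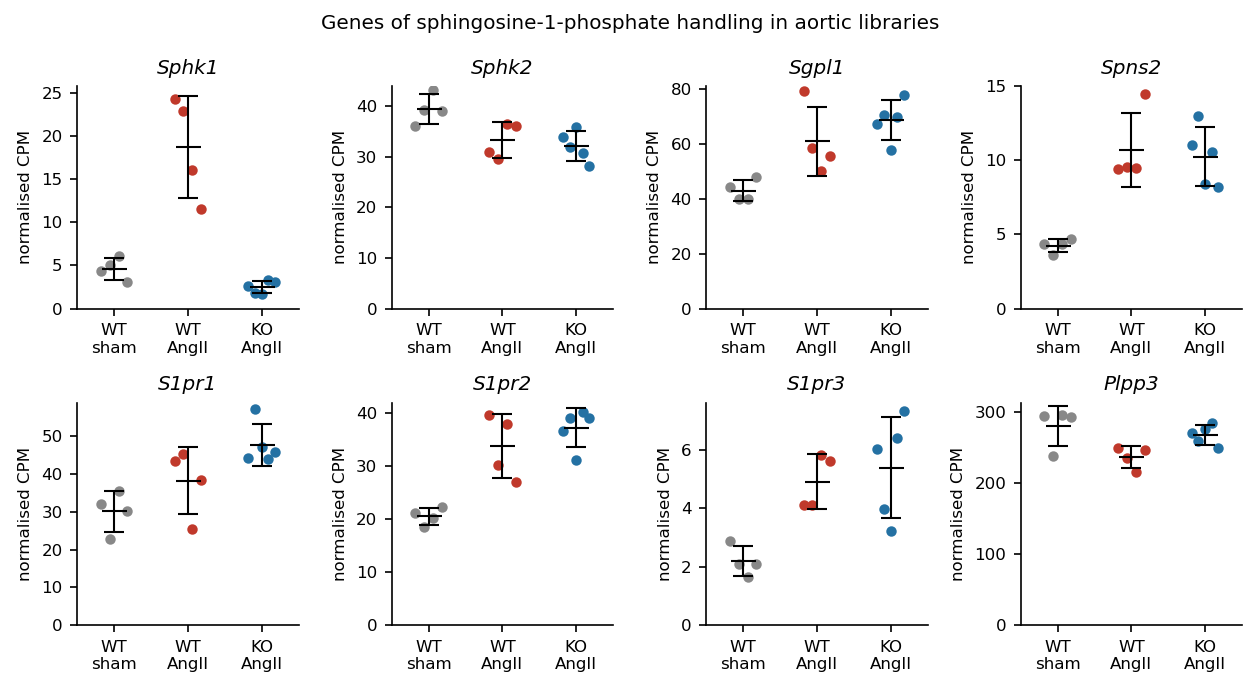
Normalised CPM of Sphk1 and 7 further genes of S1P handling in the 13 aortic libraries (points: 4 WT sham, 4 WT AngII and 5 KO AngII), with the group mean and SD (bars). Sphk1 is between 1.72 and 3.29 CPM in all KO libraries and between 11.6 and 24.2 CPM in WT AngII libraries, while the KO and WT AngII points of the other 7 genes overlap.

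Sphk1 was the 1 gene called between KO and WT AngII aortas. Of 16863 genes tested by edgeR, 0 were called higher and 1 lower at an adjusted p below 0.05 (0.00593%). At an unadjusted p below 0.05 there were 608 genes (3.61%), 293 with a higher and 315 with a lower estimate in KO, and the second smallest adjusted p was 0.8593. By chance 843.2 genes would lie at that level, and the reason for the smaller number was not tested. Without WT AngII replicate 1 the number at an unadjusted p below 0.05 was 1813, and again Sphk1 alone was called. With DESeq2 on the same libraries 4 genes were called higher and 2 lower, and limma voom with sample quality weights called Sphk1 alone. At an unadjusted p below 0.05 DESeq2 had 779 of 30492 genes and limma voom 1371 of 16863. The same model, applied to the 13 libraries, called 2475 genes higher (14.7%) and 1826 lower (10.8%) in WT AngII than in WT sham aortas. Both comparisons use the 4 WT AngII libraries.

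A missing call does not show that a gene was unchanged, so the size of change that the data leave possible was read from the 95% intervals. For 13986 genes (82.9%) the whole interval lay within 2-fold in either direction, and for 11052 (65.5%) within 1.5-fold. The median half-width of the interval was 0.28 on the log2 scale. Precision followed the level of a gene. Among 5210 genes with a mean log2 CPM between 4 and 6, 98.4% had an interval within 2-fold and 93.9% within 1.5-fold. The 2764 genes below a log2 CPM of 0 reached only 25.4% and 0.253%. For most genes of that level the data thus leave a change of 2-fold possible.

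Point estimates were narrowly spread. The quartiles of all log2 fold changes were -0.10 and 0.09 around a median of -0.01, and percentiles 1 and 99 were -0.67 and 0.89. For AngII in WT aortas percentiles 1 and 99 were -1.41 and 2.46. An estimate of 2-fold or more was found for 154 genes, 111 higher and 43 lower in KO. Most of them were scarce: 114 had a mean log2 CPM below 0 and 15 had one of 2 or more. KO and WT AngII libraries did not overlap for 163 genes (0.967%), of which 81 were higher and 82 lower in KO. Groups this small separate for some genes without any effect of the deletion, and that share was not computed. A lack of overlap in a single gene below is therefore a description of its values only.

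**Figure D3:**
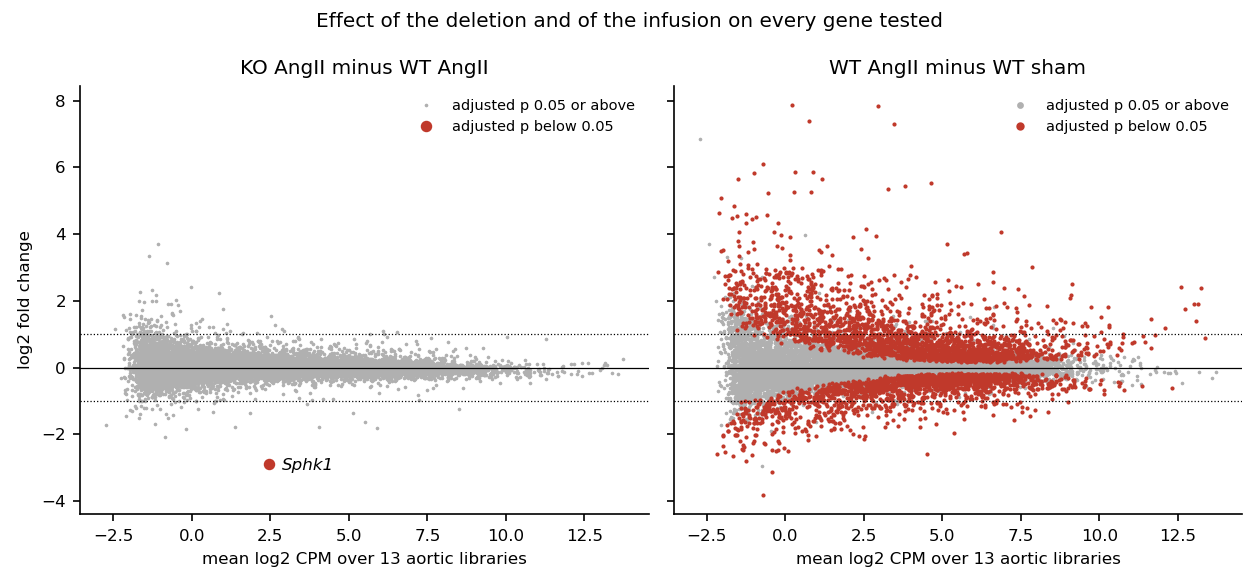
Log2 fold change of each of the 16863 genes tested against its mean log2 CPM over the 13 aortic libraries, for KO minus WT AngII (left) and WT AngII minus WT sham (right) on the same vertical axis; red marks an adjusted p below 0.05 and dotted lines a 2-fold difference. Sphk1 is the 1 red point on the left, against 4301 on the right.

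The 4 genes that DESeq2 called higher were not called by edgeR, and they were named after their values were seen. Hs6st2, a sulfotransferase that modifies heparan sulfate chains, stood at 10.9, 10.3, 5.75 and 7.99 CPM in WT AngII and at 20.02, 14.95, 17.11, 13.2 and 14.54 CPM in KO aortas. The groups did not overlap, and the log2 fold change was 0.87 (0.52 to 1.22; edgeR adjusted p = 0.8593). Dglucy, a mitochondrial D-glutamate cyclase, was measured at 10.7 to 12.8 CPM in WT AngII and 15.5 to 17.3 CPM in KO aortas, a log2 fold change of 0.43 (0.24 to 0.61).

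Adamts8, a secreted metalloprotease, ranged from 51.4 to 70.2 CPM in WT AngII and from 71.1 to 146.4 CPM in KO aortas, with a log2 fold change of 0.93 (0.46 to 1.40). Olfr224, annotated as an olfactory receptor, lay between 1.19 and 4.15 CPM in WT AngII, between 4.77 and 9.28 CPM in KO and between 9.44 and 13.7 CPM in sham aortas. Its KO effect was 1.55 (0.92 to 2.18) on the log2 scale. The KO and WT AngII groups were also separate for Adamts8 and Olfr224, and edgeR gave adjusted p-values of 0.9814 and 0.8593.

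The remaining genes of S1P synthesis, breakdown, export and sensing did not pass the test. Of 18 listed genes 15 were tested, and Sphk1 was the 1 called. Sgpp2, Apom and S1pr5 had at most 10 reads in any library and were not tested. The median log2 fold change of the 15 was 0.06, beside -0.01 for all genes. Intervals of 14 lay within 2-fold and of 11 within 1.5-fold.

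Sphk2, the other sphingosine kinase, was measured at 31.0, 29.5, 36.5 and 36.0 CPM in WT AngII aortas and at 34.0, 31.8, 35.9, 30.6 and 28.3 CPM in KO aortas. The groups overlapped throughout, and the KO to WT ratio was 0.966 with an interval of 0.85 to 1.1. The S1P lyase Sgpl1, which cleaves S1P irreversibly, ranged from 50.2 to 79.1 CPM in WT AngII and from 57.7 to 77.9 CPM in KO aortas, a ratio of 1.13 (0.946 to 1.34). Sgpp1, a phosphatase that returns S1P to sphingosine inside the cell, had the narrowest interval of the list, a log2 fold change of 0.01 (-0.12 to 0.14).

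The lipid phosphate phosphatases, which act on S1P outside the cell among other substrates, had small estimates of both signs. Plpp3 was measured at 249.0, 235.7, 215.2 and 246.9 CPM in WT AngII and at 269.8, 259.5, 276.8, 284.9 and 248.9 CPM in KO aortas. Only the lowest KO value fell inside the WT range, the log2 fold change was 0.18 (0.01 to 0.35) and the edgeR adjusted p was 0.9814. For Plpp1 the estimate was -0.22 (-0.45 to 0.01) and for Plpp2 -0.15 (-0.41 to 0.10).

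Among exporters, Spns2, the S1P transporter of endothelial cells, ranged from 9.40 to 14.5 CPM in WT AngII and from 8.21 to 13.02 CPM in KO aortas. Its KO to WT ratio was 0.954 (0.751 to 1.21), and infusion had raised it 2.53-fold in WT aortas (edgeR adjusted p = 0.0001009). Mfsd2b, the exporter of red blood cells and platelets, had a log2 fold change of 0.06 (-0.30 to 0.41). The ABC transporters Abcc1 and Abca1 gave -0.12 (-0.31 to 0.06) and 0.06 (-0.18 to 0.30).

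S1pr1, the receptor best known from endothelium and lymphocytes, had the largest estimate of the receptors. It stood at 43.6, 45.3, 25.6 and 38.6 CPM in WT AngII and at 44.2, 57.3, 47.1, 44.0 and 45.8 CPM in KO aortas. KO values lay at or above the upper part of the WT range and overlapped it, and the ratio was 1.25 (0.984 to 1.58; edgeR adjusted p = 0.9814). S1pr2 and S1pr3, the receptors known for coupling to contraction in smooth muscle, gave ratios of 1.1 (0.938 to 1.3) and 1.09 (0.774 to 1.55). Infusion had raised S1pr2 1.64-fold and S1pr3 2.24-fold in WT aortas (edgeR adjusted p = 0.0005116 and 0.00429). S1pr4, a receptor of blood cells, was scarce, and its log2 fold change of 0.12 had an interval of -0.43 to 0.68.

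Ceramide and sphingomyelin enzymes, the neighbouring branch of sphingolipid metabolism, had 0 of 24 tested members called. An unadjusted p below 0.05 was found for 2 of the 24, beside 3.61% of all genes. The ceramide synthase Cers6 was measured at 17.8, 15.6, 11.6 and 15.03 CPM in WT AngII and 21.5, 18.8, 18.5, 18.7 and 20.4 CPM in KO aortas. The groups did not overlap, with a log2 fold change of 0.38 (0.11 to 0.65) and an edgeR adjusted p of 0.9814. Degs1, which desaturates dihydroceramide to ceramide, had an estimate of -0.32 (-0.59 to -0.06), with WT AngII replicate 4 highest at 248.1 CPM and the KO aortas between 142.3 and 166.0 CPM. Without that library the estimate of Degs1 was -0.17, and without WT AngII replicate 1 it was -0.45. Sptlc2, a subunit of the first enzyme of the pathway, gave -0.03 (-0.15 to 0.09). Of the 24 intervals, 19 lay within 1.5-fold.

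Across all 44 gene lists, 916 distinct genes were tested and Sphk1 was the 1 called. An unadjusted p below 0.05 was found for 60 of the 916, beside 3.61% of all genes. AngII changed 420 of the same genes in WT aortas (45.9%, against 25.5% of all genes). List medians of the KO effect lay between -0.15 and 0.15 for 36 of the 44 lists. With each of the 9 AngII libraries left out in turn, 21 lists stayed within that band throughout. The lowest or highest median of a list came without WT AngII replicate 1 in 27 lists and without WT AngII replicate 4 in 28.

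**Figure D4:**
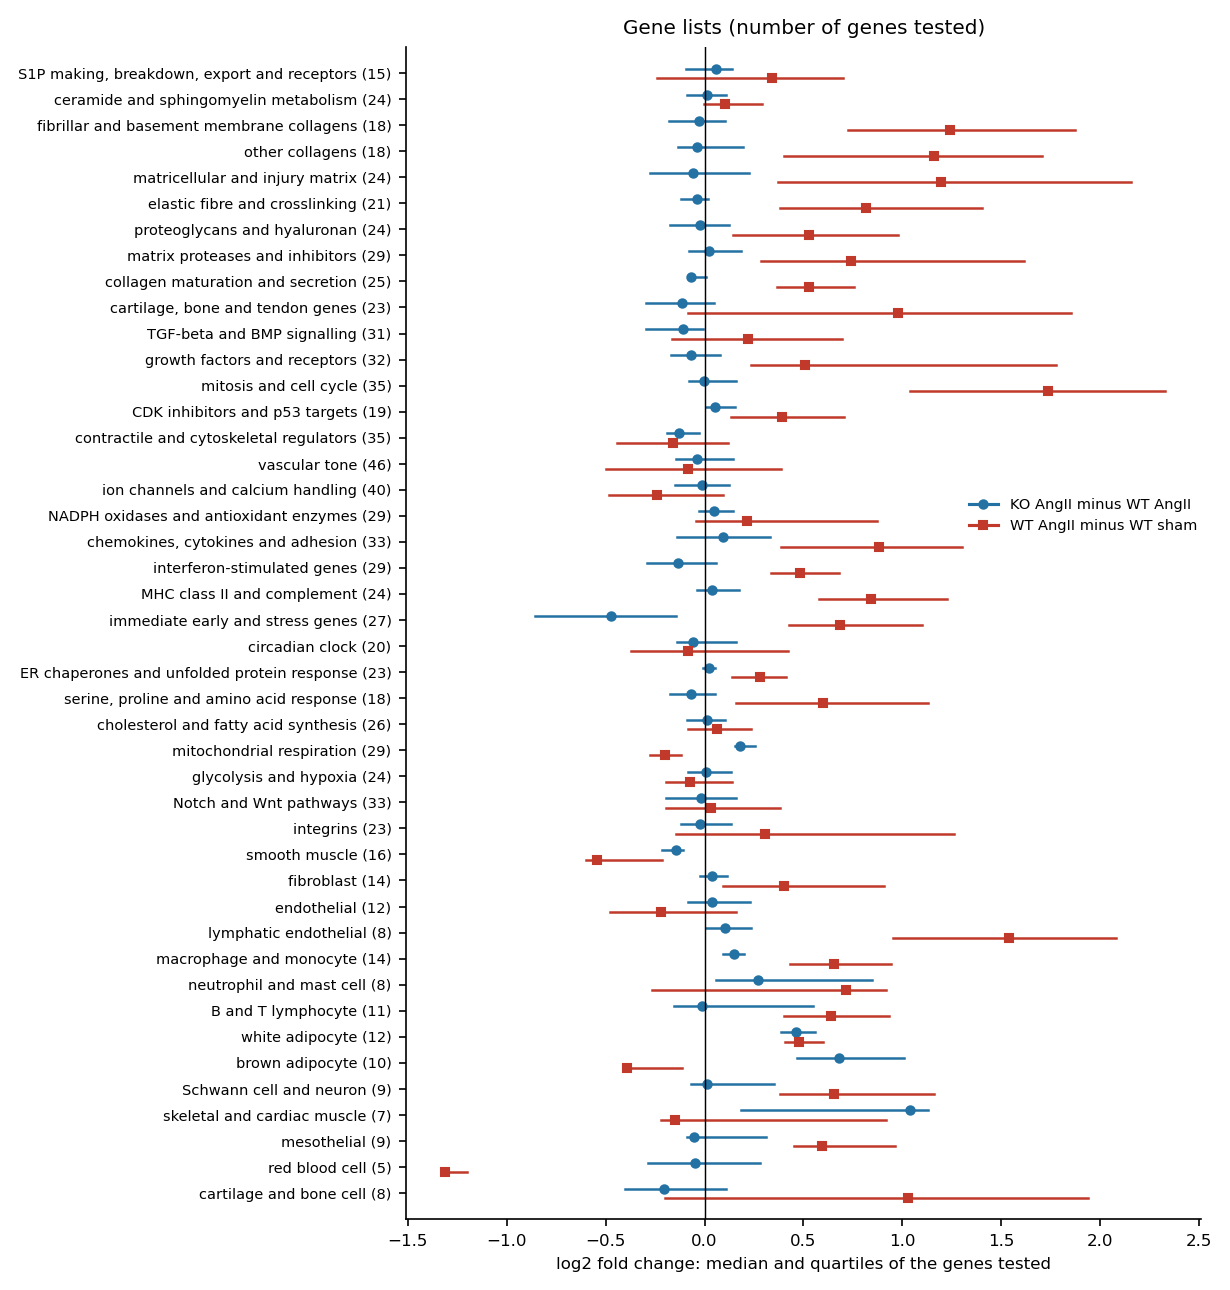
Median (marker) and quartiles (line) of the log2 fold changes of the genes tested in each of 44 lists, for KO minus WT AngII (blue circles) and WT AngII minus WT sham (red squares); the number of genes tested is in brackets. Blue medians stay between -0.15 and 0.15 for 36 lists, and the largest departures are the immediate early, adipocyte and skeletal and cardiac muscle lists.

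Collagens and other matrix genes, which AngII raised widely in WT aortas, had no call for the deletion and list medians close to 0. Of 18 fibrillar and basement membrane collagens 0 were called for the deletion, and their median log2 fold change was -0.03. In WT aortas AngII raised 15 of these 18, with a median of 1.24, beside 14.7% of all genes called higher. Col1a1, the main chain of type I collagen, was measured at 14580, 8589, 10600 and 7395 CPM in WT AngII and at 11580, 10430, 7498, 11790 and 14640 CPM in KO aortas. The groups covered the same range, far above the 1601 to 2119 CPM of sham aortas. The KO to WT ratio of Col1a1 was 1.09 (0.8 to 1.48), beside a 5.37-fold rise with AngII. Col3a1 gave 1.05 (0.745 to 1.47) beside 5.21-fold. Without WT AngII replicate 1, the highest WT library for Col1a1, the log2 fold changes were 0.33 for Col1a1 and 0.34 for Col3a1, and without WT AngII replicate 4 they were -0.01 and -0.10.

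Col2a1, the cartilage collagen, had the largest estimate of these collagens, a log2 fold change of 1.32 (0.43 to 2.21; edgeR adjusted p = 0.9814). It stood at 5.05, 2.98, 1.88 and 2.01 CPM in WT AngII and at 15.4, 4.88, 6.57, 4.11 and 6.41 CPM in KO aortas. KO replicate 1 was the highest, and the highest WT AngII value lay above 2 of the KO values.

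Elastic fibre and crosslinking genes were measured closely: 20 of 21 intervals lay within 2-fold, with a median of -0.04. Elastin (Eln) had a ratio of 0.981 (0.745 to 1.29), beside 2.65-fold for AngII. Lox, the enzyme that crosslinks collagen and elastin, stood at 1159, 1147, 1036 and 1609 CPM in WT AngII and at 1401, 1204, 1220, 1478 and 1413 CPM in KO aortas. These ranges overlapped, and the ratio was 1.09 (0.898 to 1.31) beside 3.52-fold. Its relative Loxl2 had a negative estimate of -0.33 (-0.63 to -0.02; edgeR adjusted p = 0.9814), with WT AngII replicate 4 highest at 292.5 CPM. Without that library it was -0.15, and without WT AngII replicate 1 it was -0.44.

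In the matricellular list, proteins of injured and remodelling matrix, 0 of 24 were called and the median was -0.06. An unadjusted p below 0.05 was found for 4 of the 24, beside 3.61% of all genes. Ccn1, a secreted matricellular protein induced rapidly by many stimuli, had the largest estimate, -1.26 (-2.19 to -0.33; edgeR adjusted p = 0.9814). It stood at 315.1, 530.9, 594.2 and 1426 CPM in WT AngII and at 412, 319.3, 309.8, 293.7 and 162.4 CPM in KO aortas. WT AngII replicate 4 was far above the rest and the groups overlapped, and the estimate was -0.69 without that library and -1.51 without WT AngII replicate 1. Osteopontin (Spp1), 46.3-fold higher with AngII in WT aortas, was measured at 142.9, 66.3, 42.9 and 57.8 CPM in WT AngII and at 131.0, 76.0, 77.7, 138.7 and 96.6 CPM in KO aortas. Its spread within groups was wide, and the ratio of 1.34 had an interval of 0.782 to 2.3. The data thus leave changes within that interval possible. Tenascin C (Tnc) was measured more closely, with a ratio of 1.03 and an interval of 0.879 to 1.2. Thbs1 gave a log2 fold change of -0.21 (-0.67 to 0.26) and Postn -0.18 (-0.51 to 0.14), and in both WT AngII replicate 4 was the highest library. Without it the estimates were 0.09 for Thbs1 and -0.001 for Postn. Smoc2, a secreted calcium-binding matrix protein, had an estimate of 0.36 (0.12 to 0.60), with KO values from 340.6 to 525.2 CPM and WT AngII values from 285.7 to 377.2 CPM (edgeR adjusted p = 0.9814).

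Enzymes and chaperones of collagen maturation had all 25 tested members within 2-fold and 23 within 1.5-fold, with 0 called and a median of -0.07. Matrix proteases and their inhibitors had 0 of 29 called and a median of 0.02 (0.19 without WT AngII replicate 1), and Adamts8 had the smallest p among them. Timp1, an inhibitor of matrix metalloproteases, gave 0.28 (-0.23 to 0.78). Other collagens (18 tested) and proteoglycans (24 tested) had medians of -0.04 and -0.02, with 0 called.

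Cartilage, bone and tendon genes, 23 tested, had 0 called and a median of -0.11, and here 1 KO library stood apart. Chad, which encodes the cartilage protein chondroadherin, was measured at 11.9, 9.16, 9.15 and 6.93 CPM in WT AngII and at 2.59, 2.31, 4.34, 1.99 and 26.5 CPM in KO aortas. KO replicate 5 was the highest of all 9, and the other 4 were lower than any WT AngII value. The log2 fold change was -0.30 (-1.82 to 1.21) with all libraries and -1.72 without KO replicate 5, where Chad was called together with Sphk1 (edgeR adjusted p = 0.047). The tendon gene Tnmd also had its highest KO value in that library, 77.6 CPM against 13.6 to 19.3 CPM in the other 4, within a WT AngII range of 7.53 to 111.3 CPM.

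Cell cycle genes, most of which AngII raised in WT aortas, did not pass the test for the deletion. None of 35 was called, the median log2 fold change was -0.004, and 34 intervals lay within 2-fold but 20 within 1.5-fold. AngII had raised 31 of the 35 with a median of 1.74, beside 14.7% of all genes called higher. Mki67, a marker of cycling cells, stood at 15.7, 13.5, 10.56 and 22.1 CPM in WT AngII and at 16.1, 18.4, 13.5, 16.7 and 24.3 CPM in KO aortas, a ratio of 1.15 (0.837 to 1.58) beside 5.11-fold for AngII. Top2a, a DNA topoisomerase of dividing cells, gave 1.04 (0.765 to 1.42). WT AngII replicate 4 was the highest of the 9 libraries for 18 of the 35 genes, and without it the list median was 0.18 with 30 of 35 estimates above 0 and 0 called.

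In the list of CDK inhibitors and p53 targets 0 of 19 were called, and some members had small estimates with intervals above 0. Cdkn1a, the CDK inhibitor p21, ranged from 93.0 to 106.6 CPM in WT AngII and from 107.6 to 123.8 CPM in KO aortas, without overlap. Its log2 fold change was 0.22 (0.04 to 0.41; edgeR adjusted p = 0.9814). For Ccng1, a p53 target, the estimate was 0.22 (0.07 to 0.38).

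Growth factor and TGF-beta pathway genes likewise had 0 called, of 32 and 31 tested. In the TGF-beta and BMP list 24 of 31 estimates were below 0, with a median of -0.11. Without WT AngII replicate 4, the highest of the 9 libraries for 16 of these genes, the median was -0.04 and 17 of 31 were below 0. The ligands Tgfb1 and Tgfb3 gave -0.11 (-0.30 to 0.08) and -0.05 (-0.25 to 0.15). Igf1, an insulin-like growth factor raised by AngII, gave -0.17 (-0.76 to 0.42). Pdgfrb, a receptor of mural cells for platelet-derived growth factor, had an estimate of -0.22 (-0.40 to -0.04), from 488.9 to 595.4 CPM in WT AngII and 437.5 to 490.8 CPM in KO aortas (edgeR adjusted p = 0.9814).

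**Figure D5:**
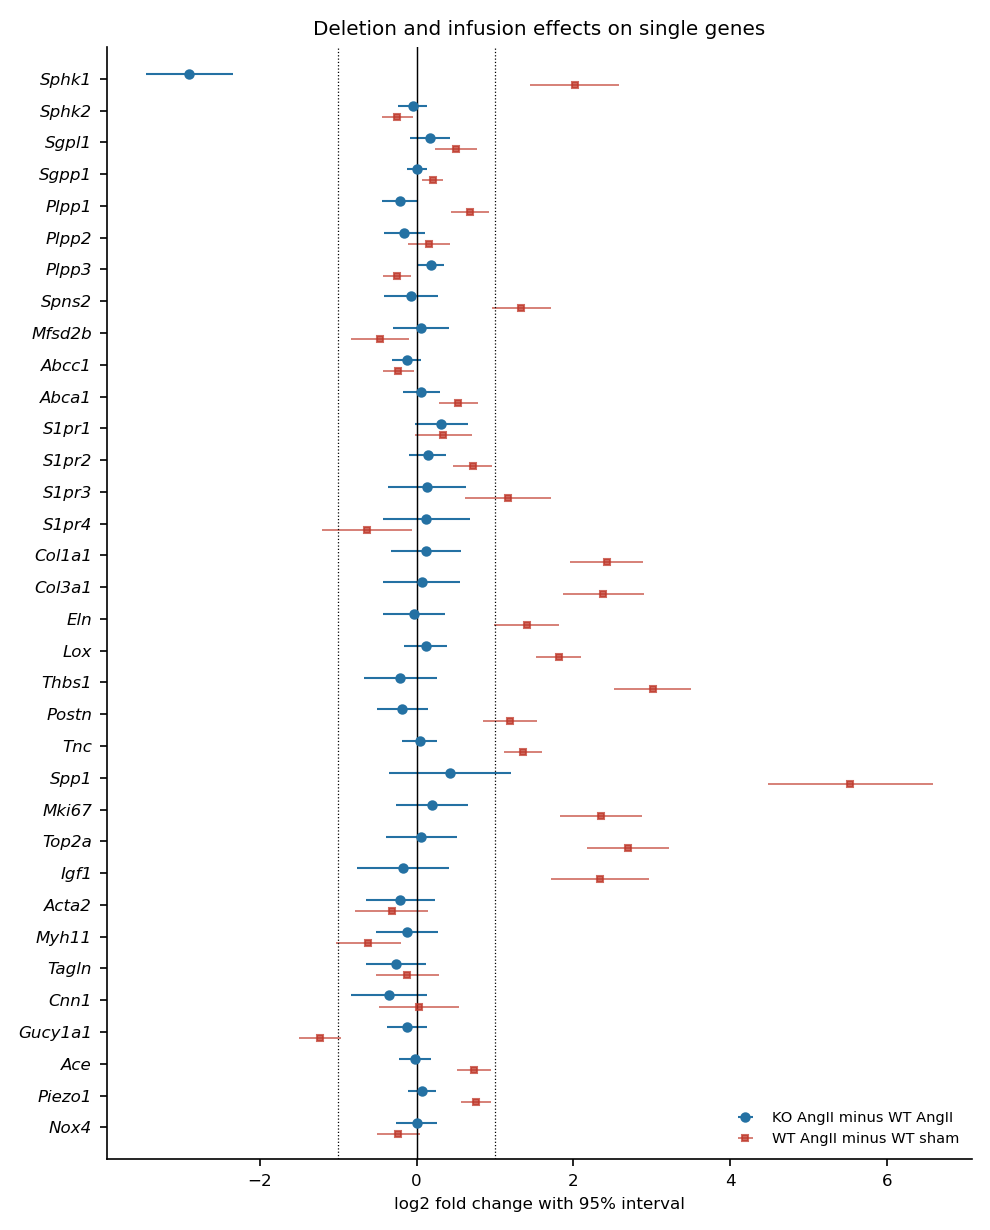
Log2 fold changes with 95% intervals of 34 genes for KO minus WT AngII (blue circles) and WT AngII minus WT sham (red squares); dotted lines mark a 2-fold difference. Sphk1 is the 1 gene whose whole blue interval lies beyond a dotted line, as many whole red intervals of matrix and cell cycle genes do.

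Smooth muscle contractile genes, which belong to the cells in which Cre is active, did not pass the test either. All 16 smooth muscle markers and all 35 contractile and cytoskeletal regulators had intervals within 2-fold, and 0 were called. Medians were -0.15 and -0.13, with 14 of 16 and 29 of 35 estimates below 0. Both shifts depended on single libraries, in opposite directions. Without WT AngII replicate 4 the medians were -0.02 and -0.002, with 10 of 16 and 18 of 35 below 0. Without WT AngII replicate 1 they were -0.30 and -0.23, with 15 of 16 and 30 of 35 below 0.

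Acta2, smooth muscle actin, was measured at 7939, 11180, 14560 and 15730 CPM in WT AngII and at 10570, 11590, 14380, 9009 and 7987 CPM in KO aortas. KO values lay within the WT range, and the ratio was 0.867 (0.638 to 1.18). As a log2 fold change Acta2 was at -0.21, at -0.07 without WT AngII replicate 4 and at -0.37 without WT AngII replicate 1. The smooth muscle myosin Myh11 gave 0.922 (0.701 to 1.21). Tagln, whose promoter drives Cre, had a log2 fold change of -0.26 (-0.64 to 0.13; -0.41 without WT AngII replicate 1) and the thin filament protein Cnn1 -0.35 (-0.83 to 0.13). For Mrtfa, a coactivator of contractile gene transcription, the interval was narrow, 0.06 (-0.08 to 0.21).

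Of 46 genes of vascular tone 0 were called, with a median of -0.04. Ace, the enzyme that makes AngII, ranged from 814.4 to 1026 CPM in WT AngII and from 853.3 to 979.5 CPM in KO aortas, a ratio of 0.99 (0.859 to 1.14). Agtr1a, the AngII receptor of mouse arteries, had a log2 fold change of 0.15 (-0.29 to 0.60) at 2.98 to 5.68 CPM. Gucy1a1, a subunit of the nitric oxide receptor that AngII lowered in WT aortas, gave -0.13 (-0.38 to 0.13). Enpep, a peptidase that degrades AngII, had the smallest p of the list, with an estimate of -0.36 (-0.63 to -0.10; edgeR adjusted p = 0.9814). Its KO values were 44.8 to 63.3 CPM and its WT AngII values 58.1 to 86.3 CPM.

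Ion channels and calcium handling genes had 0 of 40 called, a median of -0.01 and 36 intervals within 2-fold. The mechanosensitive channel Piezo1 had a ratio of 1.05 (0.925 to 1.19), and the calcium channel Cacna1c a log2 fold change of -0.09 (-0.30 to 0.13). For Kcnma1, the large-conductance potassium channel, the estimate was -0.21 (-0.46 to 0.03). NADPH oxidases and antioxidant enzymes, 29 tested, had 0 called and a median of 0.05. Nox4, the main oxidase of smooth muscle, ranged from 421.4 to 578.9 CPM in WT AngII and from 450.7 to 618.4 CPM in KO aortas, a ratio of 1 (0.837 to 1.2).

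Inflammatory genes had 0 called, and the precision differed between their lists: 16 of 33 intervals lay within 2-fold for chemokines, cytokines and adhesion molecules, 19 of 29 for interferon-stimulated genes and 22 of 24 for MHC class II and complement genes. The chemokine, cytokine and adhesion list had a median of 0.10, and of 0.24 without WT AngII replicate 1. Il6 had the largest estimate, 3.34 (0.90 to 5.78; edgeR adjusted p = 0.9814). It was at 0.03 to 0.40 CPM in WT AngII and at 1.04, 0.19, 0.13, 5.51 and 5.07 CPM in KO aortas, so the estimate rested on KO replicates 4 and 5. Without KO replicate 1, 4 or 5 Il6 did not pass the filter on low counts. Its place among the genes tested thus depended on its KO values, and its estimate and interval are not support for a change. The monocyte chemokine Ccl2 gave -0.02 (-0.83 to 0.79) and the adhesion molecule Vcam1 0.17 (-0.12 to 0.45). Among MHC class II and complement genes the median was 0.04, and it was 0.26 without WT AngII replicate 1 and -0.08 without WT AngII replicate 4. C7, a component of the terminal complement complex, was measured at 102.7 to 151.8 CPM in WT AngII and 153.8 to 207.8 CPM in KO aortas, with no overlap and a log2 fold change of 0.50 (0.19 to 0.82; edgeR adjusted p = 0.9814).

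Interferon-stimulated genes, which cells switch on in response to interferons, had a median of -0.13, and its direction turned when 1 library was left out. The 29 genes summed to 784.5, 366.6, 355.5 and 264.2 CPM in WT AngII, 350.6 to 434.7 CPM in KO and 294.6 to 325.7 CPM in sham aortas. WT AngII replicate 1 thus stood far above all others, and WT AngII replicate 4 was the lowest of the 9 AngII libraries for 23 of the 29 genes. Without replicate 1 the median was 0.25 with 29 of 29 estimates above 0, and without replicate 4 it was -0.30 with 26 of 29 below 0.

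Immediate early and stress genes, which cells switch on rapidly after many kinds of stimulus, had the lowest list median, and it moved with 1 library. Of 27 tested, 25 had estimates below 0, 8 had an unadjusted p below 0.05 and 0 were called. Of all genes, 3.61% had an unadjusted p below 0.05. The median of the list was -0.47. WT AngII replicate 4 was the highest of the 9 libraries for 24 of the 27 genes. Their sum was 4672 CPM there, against 1809 to 2373 CPM in the other WT AngII libraries, 1604 to 2303 CPM in KO and 1579 to 2182 CPM in sham aortas. Without that library the median was -0.07, with 20 of 27 below 0 and 2 at an unadjusted p below 0.05.

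Single members showed the same pattern. Nr4a1, a nuclear receptor of the immediate early class, stood at 94.2, 78.1, 49.2 and 398.4 CPM in WT AngII and at 43.0, 32.9, 32.8, 84.2 and 26.6 CPM in KO aortas. Its log2 fold change was -1.82 (-3.07 to -0.57) with WT AngII replicate 4 and -0.75 without it. Fos, a subunit of the AP-1 transcription factor, went from -1.63 to -0.05. Klf2, a transcription factor induced by flow in endothelium, depended less on that library, with -0.76 (-1.18 to -0.34) and -0.56. Its values were 101.5, 89.6, 67.0 and 138.4 CPM in WT AngII and 63.8, 73.0, 52.6, 60.0 and 43.7 CPM in KO aortas, and the edgeR adjusted p was 0.9814 with all libraries and 0.91 without that one.

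Markers of other cell types in the sample were compared in the same way, and 0 were called in any of the 14 cell type lists. Fibroblast markers had a median of 0.04, and of 0.15 without WT AngII replicate 1 and -0.11 without WT AngII replicate 4, which was the lowest library for 13 of these 14 genes. Endothelial markers had a median of 0.04, from -0.08 without KO replicate 3 to 0.15 without KO replicate 5. Macrophage and monocyte markers had a median of 0.15 with 12 of 14 estimates above 0, of 0.05 with 10 of 14 without WT AngII replicate 4, and of 0.24 with 13 of 14 without WT AngII replicate 1. Csf1r, the receptor that defines macrophages, ranged from 140.0 to 160.4 CPM in WT AngII and from 165.1 to 190.3 CPM in KO aortas, without overlap. Its log2 fold change was 0.21 (0.04 to 0.38; edgeR adjusted p = 0.9814). Csf1r was picked for a small p, and other macrophage markers differed from it. Over the main fit and all alternatives run, Cd68 ranged from -0.16 to 0.02 and C1qa from -0.07 to 0.08. Adgre1 ranged from 0.13 to 0.37.

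Neutrophil and mast cell markers, 8 of 11 tested, had a median of 0.27 at a summed level of 15.73 to 52.03 CPM in WT AngII and 32.61 to 57.44 CPM in KO aortas. WT AngII replicate 4 was the lowest of the 9 libraries for all 8, and the median was 0.04 without it and 0.46 without WT AngII replicate 1. S100a9, a calcium-binding protein abundant in neutrophils, stood at 0.58, 0.74, 0.47 and 0.14 CPM in WT AngII and at 1.17, 0.76, 6.89, 1.53 and 2.42 CPM in KO aortas. The groups did not overlap but nearly touched, and KO replicate 3 was the highest. The log2 fold change of S100a9 was 2.41 (0.80 to 4.02; edgeR adjusted p = 0.9814), and 1.61 without KO replicate 3. Its partner S100a8 gave 2.01 (0.40 to 3.62), with 0.04 to 0.92 CPM in WT AngII and 0.57 to 3.14 CPM in KO aortas, which overlapped. Both genes were scarce.

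Other cell type lists of few or scarce genes moved with single WT AngII libraries as well. Lymphatic endothelial markers had a median of 0.10, and of 0.59 without WT AngII replicate 1. For B and T lymphocyte markers the median was -0.01, with 0.50 without WT AngII replicate 1 and -0.27 without WT AngII replicate 4. Mesothelial markers had -0.05, and 1.19 without WT AngII replicate 2, the library with the highest sum.

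Adipocyte markers varied widely between libraries of each group. The 12 white adipocyte markers summed to 2764, 1810, 1515 and 846.6 CPM in WT AngII and to 2497, 2808, 1509, 2289 and 2691 CPM in KO aortas. The median of their log2 fold changes was 0.46. It was 0.21 without WT AngII replicate 4, which had the lowest sum, and 0.91 without WT AngII replicate 1, which had the highest WT AngII sum. The 10 brown adipocyte markers had a median of 0.68 and summed to 316.1 to 435.7 CPM in WT AngII and 343.2 to 679.5 CPM in KO aortas. Their median was 0.44 without WT AngII replicate 4 and 1.00 without WT AngII replicate 1. The defining genes were present in every library, with Adipoq at 18.8 to 122.8 CPM and Ucp1 at 15.4 to 243.7 CPM over the 9 AngII libraries. Single markers were imprecise: for Ucp1, the uncoupling protein of brown fat, the estimate was 1.08 (-0.58 to 2.74).

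Genes of mitochondrial respiration, which brown adipocytes express at high levels, had estimates above 0 for all 29 tested, with a median of 0.18 and 0 called. Cox7a1, Cox8b and Ppargc1a are also among the brown adipocyte markers. Acadm, an enzyme of fatty acid oxidation, gave 0.37 (-0.03 to 0.77). With the white adipocyte level as a covariate the list median was 0.05 with 25 of 29 above 0, and without WT AngII replicate 4 it was 0.14 with 26 of 29. WT AngII replicate 4 was the lowest of the 9 libraries for 25 of the 29 genes. That library also had the lowest white adipocyte level of the AngII libraries, so the covariate cannot separate fat from this library. The part of fat in these values was not tested.

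Skeletal and cardiac muscle markers had the highest list median, 1.04 over the 7 of 14 genes tested, and it rested on 2 KO libraries. The genes summed to 24.12, 56.46, 24.16, 20.24 and 43.56 CPM in KO and to 20.8 to 33.46 CPM in WT AngII aortas. KO replicates 2 and 5 were above the WT AngII range and the other 3 within it or just below. Without KO replicate 2 the median was -0.04, and without KO replicate 5 it was 0.11. Acta1, Myh4 and Myh1 did not pass the filter on low counts, although their highest counts in an aortic library were 797, 594 and 553 reads. The sums and medians leave them out.

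Further lists of metabolism and signalling also had 0 called. Medians were -0.06 for the circadian clock (20 genes), 0.02 for ER chaperones (23), 0.01 for cholesterol and fatty acid synthesis (26), 0.01 for glycolysis and hypoxia (24), -0.02 for Notch and Wnt genes (33) and -0.03 for integrins (23). All 23 ER chaperone genes had intervals within 2-fold.

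Genes next to Sphk1 were examined after other results had been seen, since a recombined locus can affect its neighbours. Of the 5 nearest tested protein-coding genes on either side in the gene order of the RefSeq annotation, 0 of 10 were called. The adjacent genes Prpsap1 and Ube2o gave log2 fold changes of -0.06 (-0.22 to 0.11) and -0.04 (-0.17 to 0.09). Rhbdf2, an inactive rhomboid protein that acts in cytokine release, was measured at 13.01 to 14.64 CPM in WT AngII and 15.2 to 18.8 CPM in KO aortas. These groups did not overlap, with an estimate of 0.26 (0.09 to 0.43; edgeR adjusted p = 0.9814).

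The KO effect in the aorta was set against that in the mesenteric arteries, the small vessels of the gut, by a test of the difference itself over all 26 libraries. Of 18520 genes 0 were called by edgeR, with 749 at an unadjusted p below 0.05 and a smallest adjusted p of 0.7047. The median half-width of the interval of this difference was 0.50, wider than that of the aortic effect. In that fit Sphk1 had a log2 fold change of -2.89 in the aorta and -1.84 in the mesenteric arteries, and their difference was 1.06 (0.36 to 1.75; edgeR adjusted p = 0.953). Acvr1b, an activin receptor, had the smallest p, with 0.27 in the aorta and -0.22 in the mesenteric arteries. Adamts8 gave 0.93 and -0.38, a difference of -1.31 (-1.95 to -0.67; edgeR adjusted p = 0.953). The mesenteric libraries of KO replicates 2, 3 and 4 and WT AngII replicate 1 had 11.43, 14.7, 14.23 and 12.02% of records unaligned. The other AngII mesenteric libraries had 0.8547 to 1.404%. This trait was not balanced between the genotypes, and its part in the values of the tissue difference was not tested.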

How the data were processed

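RNA was measured in 26 arterial libraries, 13 of them aortic. Per the labels' protocols, mRNA libraries came from the NEBNext Ultra II Directional kit, with paired-end Illumina NovaSeq reads. The deposited values are counts of reads per Ensembl gene, 1 table per library, made by the authors with HISAT2, HTSeq and cutadapt on GRCm39, per the submitters' processing notes. Versions, annotation release and strand setting are not given in the sources used here, so reads of overlapping and antisense genes may not be separated. Aortic tables list 55416 identifiers; those of the mesenteric arteries have 55414, with version numbers that were removed. The 5 HTSeq summary lines stayed out of library sizes and tests; in the aorta they held 8.279 to 11.12% of records without a feature, 1.198 to 1.279% ambiguous, 0.5717 to 0.7445% unaligned, 1.96 to 2.464% of low quality and 5.357 to 7.813% with several alignments. Symbols came from a reference table for 52083 aortic identifiers. Replicate libraries differed by a chi-square per degree of freedom of 8.41 to 156.7, so none was a copy of another.

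The 13 aortic libraries were fitted in 1 model of 3 groups with edgeR 4.0.16 under R 4.3.3 (filterByExpr, TMM, robust quasi-likelihood F test), which shares the estimate of spread. Calls are genes with an adjusted p (Benjamini-Hochberg, over all genes) below 0.05. P-values set each difference against the spread between libraries, pooled over the groups. Differences between mice and between preparations cannot be told apart in that spread. Standard errors of log2 fold changes follow ±, the 95% intervals are Wald intervals of the fit that cover each gene alone, and ratios are 2 to the power of the log2 fold change. CPM use TMM factors, and log2 CPM a prior count of 2. The tissue difference is an interaction term over all 26 libraries. These were taken as independent, since no label ties a mesenteric library to an aortic one.

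The comparison, the 44 gene lists (972 symbols, 1 unmatched) and the genes named were chosen with earlier results of these data known. The lists are described by counts and medians, beside all genes tested. By rule the text takes Sphk1, up to 12 called genes per direction without overlap and with a mean log2 CPM of 1 or more, all S1P genes tested, from each other list up to 4 called genes or else the 2 with the smallest p and the 1 with the narrowest interval, and 5 genes per direction for the tissue difference. A selection of these is printed. Further genes, among them many well-known list members, were added with their values in view. Alternatives were DESeq2 1.42.0, limma voom 3.58.1 with sample quality weights, a stricter filter or none, scaling by RLE or by library size only, the 9 AngII libraries alone, no robust moderation, the replicate number as a block, the white adipocyte marker level as a covariate, a least fold of 1.2 and each library left out. For the tissue difference they were the 18 AngII libraries, RLE factors and each AngII library left out. The scripts were tested on simulated data. Some results are not reported here.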

Additional observations from a re-analysis of the deposited data

Results flagged for a closer look

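Of 357 checks, on 75 genes and 44 lists in each aortic group, 16 had 1 library far from the others of its group, where about 1 in 20 checks, 17.8, would by chance. Of the KO libraries, replicate 5 had the highest Tnmd, 77.56 CPM against 13.62 to 19.34, and the highest mean log2 CPM of the cartilage, bone and tendon list, 4.13 against 3.659 to 3.786. KO replicate 2 had the highest S1pr1, 57.29 CPM against 43.98 to 47.13. KO replicate 4 had the highest Pdgfrb, 490.8 CPM against 437.5 to 448.1. KO replicate 3 had the lowest mean log2 CPM of the S1P list, 4.468 against 4.564 to 4.599.

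Of the WT AngII libraries, replicate 4 had the highest Postn, 8069 CPM against 5054 to 5343, and the highest Spns2, 14.47 CPM against 9.396 to 9.559. In sham aortas, replicate 4 was low for Cdkn1a (32.63 CPM against 41.92 to 43.84), for Kcnma1 (52.87 CPM against 62.23 to 62.63) and for the mean log2 CPM of matrix proteases and inhibitors (4.892 against 5.153 to 5.201), and high for that of mitochondrial respiration (6.642 against 5.809 to 5.927). Sham replicate 2 was low for Plpp3 (238.3 CPM against 293.6 to 296.2) and for the mean log2 CPM of endothelial markers (5.525 against 5.697 to 5.732), and high for S1pr4 (2.763 CPM against 1.66 to 1.748). Sham replicate 3 was high for Mfsd2b (4.729 CPM against 3.61 to 3.758) and for the mean log2 CPM of ceramide and sphingomyelin genes (5.086 against 5 to 5.013).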

How the results depend on the processing

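Sphk1 was called lower in KO under all alternatives run, with log2 fold changes of -3.10 to -2.75 and adjusted p-values of 4.95e-25 to 0.0342. DESeq2 called 4 genes higher and 2 lower. The replicate numbers did not pair the libraries: deviations of WT AngII and KO libraries with the same number correlated at -0.0463 to 0.102. With the replicate block, 1 gene was called higher (Kank4, 0.64, adjusted p = 0.0409) and 2 lower (Sphk1 and Chad, -1.75, adjusted p = 0.0203). Replicate number 5 occurs in the KO group alone, so this block takes KO replicate 5 out of the comparison. The call of Chad is therefore not separate from its call without KO replicate 5. Leaving out each library gave 1 to 2 genes lower, the 2 without KO replicate 5, and 0 higher.

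For AngII in WT aortas, library size alone called 3729 genes lower against 1826, and a least fold of 1.2 called 1334 higher and 690 lower. For KO under AngII against sham, where 2796 were higher and 2401 lower, library size alone gave 4075 lower, the white adipocyte covariate 1454 lower, and the least fold 1652 higher and 920 lower. The cause was not tested, apart from the least fold, which is a stricter test. The tissue difference had 0 calls under all alternatives run. Over all lists and alternatives, 1032 list medians moved by less than the pooled SD of list levels within groups, and 24 by more. That SD includes the libraries that stand apart, so it is a wide margin. With each AngII library left out in turn, only 21 of 44 list medians stayed within 0.15 of 0 throughout. Genes with few reads limit the comparison, since their intervals exceed 2-fold.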
